A study of Mus musculus with 6 samples.

Results

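Amino acid transporters were examined in hematopoietic stem cells (HSCs) of IGF1- and vehicle-treated mice. The 10 genes *Slc3a2*, *Slc7a5*, *Slc7a1*, *Slc7a6*, *Slc1a5*, *Slc1a4*, *Slc38a1*, *Slc38a2*, *Slc43a2* and *Slc36a4* were taken by their symbols. All 10 were found among the 21878 rows of each library, and 9 of them were high enough to be tested. The cells were HSCs sorted from the bone marrow (BM) of wild type (WT) mice as cells negative for lineage markers, CD34 and Flk2 (the product of *Flt3*) and positive for Sca1 and c-Kit, and their RNA was sequenced in 3 libraries from control mice and 3 libraries from mice treated with IGF1, a growth factor that activates mTOR signaling. The methods of the study name C57BL/6 mice, give IGF1 by subcutaneous injection, and put the comparison of HSCs with vehicle at 1 day after administration. The labels conflict on one point, as their extraction protocol speaks of irradiated mice where the treatment label and the series design name IGF1, and the libraries were taken as vehicle and IGF1. Age, sex, the number of mice behind each library and whether replicates came from separate mice are not given in the sources used here, so p-values measure only the spread between these libraries, which may be technical.

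Amino acids cross the cell membrane through solute carriers, which differ in the amino acids they accept and in whether they exchange one amino acid for another or draw on the sodium gradient. Leucine and other large neutral amino acids enter through exchangers built of a light chain and a shared heavy chain, and these exchangers need glutamine and small neutral amino acids that sodium-coupled carriers bring into the cell. Leucine and arginine inside the cell are needed for the activation of mTORC1 at the lysosome, and shortage of amino acids raises translation of the transcription factor ATF4, which activates many transporter genes.

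The values were taken as FPKM, fragment counts divided by the length of the gene and by the sequencing depth. Libraries held between 11206746 and 15973581 reads on listed genes, as recovered from the steps in the values. One library stood apart from its group. Over genes with at least 20 reads in a pair of libraries, chi-squared per gene was 1.52 between control replicates 1 and 3 and 1.69 to 1.89 between IGF1 libraries, whereas it was 229 and 231 between control replicate 2 and the other controls and 24.6 to 28.0 between control replicate 2 and the IGF1 libraries. The library labelled control replicate 2 was thus nearer to the IGF1 libraries than to the other controls. Its label is in doubt and was kept, since groups were taken from the labels alone, so every control mean and fold change over all 6 libraries rests on that label. Results are therefore given with and without control replicate 2. Values of single libraries are listed in the order of replicates 1, 2 and 3. Transcripts of *Cd34* and *Flt3*, whose products were gated out, were abundant in every library. *Cd34* was at 640, 265 and 634 FPKM in the controls and lower, at 230 to 238 FPKM, in IGF1 libraries. *Flt3* was at 117, 172 and 117 FPKM in the controls and higher, at 183 to 188 FPKM, in IGF1 libraries. The 12 HSC marker genes were all detected and summed to 534 to 746 FPKM in controls and 492 to 507 FPKM in IGF1 libraries. Markers of other cells were detected too. Megakaryocyte and platelet markers summed to 119, 137 and 116 FPKM in controls and 139 to 151 in IGF1 libraries. Of the 5 tested, 2 were lower and 3 higher. T and NK cell markers summed to 372, 780 and 360 against 770 to 790 FPKM, almost all *Nkg7*, named after its values were seen. Erythroid markers summed to 42.1, 114 and 45.3 against 56.9 to 63.2 FPKM. Stromal and endothelial markers summed to 33.2, 18.0 and 35.9 against 21.7 to 22.9 FPKM. All 9 B cell markers were above 0 in every library and summed to 111 FPKM in control replicates 1 and 3, to 423 FPKM in control replicate 2 and to 391 to 407 FPKM in IGF1 libraries, although *Ms4a1* did not exceed 0.339 FPKM in any library. All 12 neutrophil and monocyte markers were above 0 in every library and summed to 2861, 4359 and 2914 FPKM in the controls and 4500 to 4528 FPKM in IGF1 libraries. *Mpo* was the largest part of that sum in the controls, at 1672, 1613 and 1705 FPKM, and was at 1648 to 1664 FPKM in IGF1 libraries. *Elane*, *Prtn3* and *Ly6c2* were higher in IGF1 libraries than in control replicates 1 and 3. In contrast, *S100a8*, *S100a9*, *Ngp* and *Camp* were called lower with IGF1, at log2 fold changes of -1.90, -2.25, -3.39 and -2.32. The median of the 11 tested was -0.41. These genes were named after their values were seen. The part of these cells in the results below was not tested.

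Among the transporters, *Slc7a5*, the light chain of the main leucine exchanger, fell after IGF1, and it was the only one of the 9 tested that passed both thresholds (fold change over 2 and adjusted p under 0.05 from limma). Among all 10447 genes tested, 6.61% passed both thresholds in either direction and 4.63% as lower in IGF1. On adjusted p alone, 2 of the 9 passed, *Slc7a5* and *Slc38a2*, against 20.4% of all genes. In 3 of the 9, *Slc7a5*, *Slc1a5* and *Slc38a2*, all IGF1 libraries lay below all controls, as did 37.4% of all genes tested, and in 0 of the 9 all IGF1 libraries lay above all controls, against 21.9% of all genes. The median log2 fold change of the 9 was -0.31, and that of all genes was -0.18. As RNA was measured in bulk, fewer cells expressing a transporter and less of its RNA per cell cannot be told apart.

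Without control replicate 2, *Slc7a5* and *Slc1a5* passed both thresholds as lower, 2 of 9, where 32.9% of all genes passed in either direction and 20.6% as lower. No transporter passed as higher (0 of 9), against 12.3% of all genes. The adjusted p alone was then under 0.05 for 7 of the 9, but 88.5% of all genes did the same, so this count says little about the transporters. The median of the 9 was -0.57 and that of all genes -0.24. Summed over the 10 transporters, expression was 312, 213 and 315 FPKM in the 3 controls, as opposed to 189, 188 and 187 FPKM with IGF1. In the summed level control replicate 2 was thus nearer to the IGF1 libraries than to its own group.

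**Figure D1:**
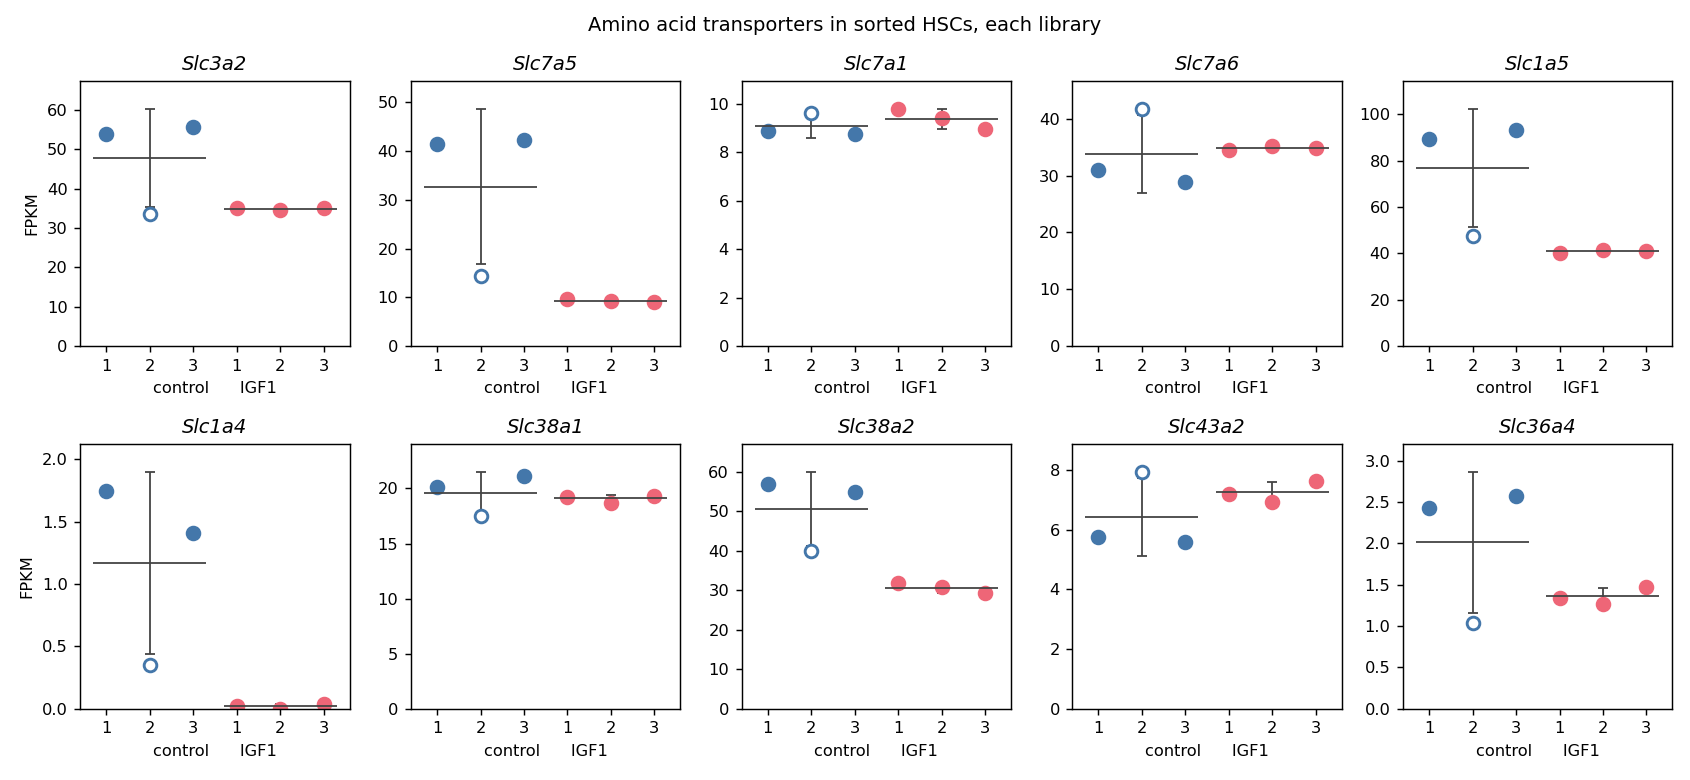
Expression of the 10 amino acid transporters in each library, in FPKM on axes that start at 0. Points are libraries, numbered by replicate, control replicate 2 is drawn open, and lines and bars are the mean and SD of 3 libraries. The 3 IGF1 libraries lie below every control for *Slc7a5*, *Slc1a5*, *Slc38a2* and *Slc1a4*, and the groups overlap for the other transporters.

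The heavy chain and its light chains were described first. *Slc3a2* (chr19:8706882-8723369, minus strand, GRCm38) encodes the heavy chain that carries the products of *Slc7a5* and *Slc7a6* to the cell surface. It was at 53.9, 33.4 and 55.8 FPKM in the controls and at 35.0, 34.6 and 35.1 FPKM in the IGF1 libraries. Control replicate 2 was below all IGF1 libraries, so the groups overlapped, while the other controls were 1.57 times the IGF1 mean. The log2 fold change was -0.41 (standard error 0.21, adjusted p = 0.149 from limma), and it was -0.64 (standard error 0.04, adjusted p = 8.5e-08 from limma) without control replicate 2, under the 2-fold threshold in both.

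*Slc7a5* (chr8:121881150-121907694, minus strand) was at 41.5, 14.4 and 42.2 FPKM in the controls, from 2335, 582 and 2387 reads. It was at 9.65, 9.20 and 9.05 FPKM in the IGF1 libraries, from 420, 366 and 410 reads. Every IGF1 library was below every control, and control replicate 2 lay 72.0% of the way from the other controls to the IGF1 mean on the log2(FPKM + 1) scale. Means were 32.7 ± 15.9 FPKM (SD, n = 3) in controls and 9.30 ± 0.309 FPKM (SD, n = 3) in IGF1 libraries. The log2 fold change was -1.56 (standard error 0.41, 95% interval -2.57 to -0.55, adjusted p = 0.0483 from limma). Once control replicate 2 was left out it was -2.06 (standard error 0.05, adjusted p = 1.5e-10 from limma). The 2-sided exact permutation test gave p = 0.1 for *Slc7a5*, the smallest value that 3 libraries against 3 allow. The call was lost (adjusted p 0.158 to 0.165) when any single library other than control replicate 2 was left out, with log2 fold changes of -1.59 to -1.31, and in these fits 0 genes in all passed both thresholds in limma, where 685 to 1181 passed the fold threshold with an unadjusted p under 0.05. The calls of *Cebpb*, *Slc36a1*, *Sesn1* and *Sesn2* given below were lost in these fits as well.

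*Slc7a6* (chr8:106168857-106198706, plus strand) encodes another light chain of the same heavy chain, which exchanges cationic amino acids such as arginine for neutral amino acids. It was at 31.0, 41.7 and 28.9 FPKM in the controls and at 34.5, 35.3 and 34.9 FPKM in the IGF1 libraries. The IGF1 libraries lay between control replicate 2 and the other controls. The log2 fold change was 0.06 (standard error 0.15, 95% interval -0.32 to 0.44, adjusted p = 0.75 from limma), and 0.21 (standard error 0.04, adjusted p = 0.00096) without control replicate 2.

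Thus the light chains on the same heavy chain were found at different proportions in the groups. The ratio of *Slc7a5* to *Slc7a6*, on the FPKM scale, was 1.34, 0.345 and 1.46 in the controls and 0.280, 0.261 and 0.259 in the IGF1 libraries. All IGF1 libraries were below all controls (2-sided exact permutation test, p = 0.1, the smallest possible), although control replicate 2 came much nearer to them than to the other controls. The ratio of *Slc7a5* to the heavy chain *Slc3a2* was 0.770, 0.430 and 0.756 in the controls and 0.276, 0.266 and 0.258 in the IGF1 libraries, again without overlap (exact permutation p = 0.1). The ratio of *Slc7a6* to *Slc3a2* was 0.574, 1.25 and 0.519 in the controls and 0.986, 1.02 and 0.996 in the IGF1 libraries, and here the groups overlapped through control replicate 2 (exact permutation p = 0.4). A ratio within a library is not moved by a factor that scales all genes of that library, but length and GC trends can move it. With these trends removed, the log2 fold change was -1.52 for *Slc7a5*, 0.48 for *Slc7a6* and -0.23 for *Slc3a2*. The ratios were chosen after values of the single genes were seen.

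Next came the carriers of glutamine and small neutral amino acids. *Slc1a5* (chr7:16781340-16798274, plus strand), a sodium-dependent exchanger of glutamine, was the most abundant of the 10 in both groups. It was at 89.4, 47.5 and 93.3 FPKM in the controls and at 40.3, 41.5 and 41.2 FPKM in the IGF1 libraries. All IGF1 libraries were below all controls, the nearest control being replicate 2. Its log2 fold change was -0.83 (standard error 0.27, 95% interval -1.48 to -0.17, adjusted p = 0.0617 from limma), which did not pass. Leaving out control replicate 2 gave -1.14 (standard error 0.04, adjusted p = 1.1e-09 from limma), past both thresholds.

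*Slc38a2* (chr15:96687392-96699730, minus strand) encodes a sodium-coupled carrier of small neutral amino acids whose transcript is known to respond to amino acid supply. It was at 56.8, 39.8 and 54.9 FPKM in the controls and at 31.9, 30.7 and 29.3 FPKM in the IGF1 libraries. All IGF1 libraries were below all controls, and control replicate 2 stood nearer to the middle between the groups than it did for *Slc7a5* or *Slc1a5*, at 56.6% of the way to the IGF1 mean against 72.0% and 81.8%. The log2 fold change was -0.69 (standard error 0.16, 95% interval -1.07 to -0.30, adjusted p = 0.0427 from limma), past the p threshold and short of a 2-fold change. Without control replicate 2 it was -0.85 (standard error 0.05, adjusted p = 4.2e-08 from limma), still short of 2-fold. The adjusted p of *Slc38a2* was 0.152 to 0.164 when any other single library was left out, and 0.0528 with 75th percentile scaling, where its log2 fold change was -0.35, and the log2 fold change was -0.38 with length and GC trends removed.

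*Slc38a1* (chr15:96571418-96642913, minus strand) encodes a closely related sodium-coupled glutamine carrier and lies close by on the same chromosome. It was at 20.1, 17.5 and 21.1 FPKM in the controls and at 19.2, 18.7 and 19.3 FPKM in the IGF1 libraries. The groups overlapped, and the log2 fold change was -0.03 (standard error 0.11, 95% interval -0.30 to 0.24, adjusted p = 0.822 from limma), with -0.11 without control replicate 2 and a change of sign under other scalings. The ratio of *Slc38a2* to *Slc38a1* was 2.82, 2.28 and 2.60 in the controls and 1.66, 1.64 and 1.52 in the IGF1 libraries. These groups did not overlap, with or without control replicate 2 (exact permutation p = 0.1 with all libraries), so the pair was found at unequal proportions in the groups.

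*Slc1a4* (chr11:20302180-20332713, minus strand) encodes a sodium-dependent exchanger of alanine, serine and cysteine. It was at 1.75, 0.353 and 1.41 FPKM in the controls, from 110, 16 and 89 reads. It was at 0.0206, 0 and 0.0395 FPKM in the IGF1 libraries, from 1, 0 and 2 reads. Thus it was nearly undetected in IGF1 libraries and low in all controls, with no overlap (exact permutation p = 0.1, the smallest possible). Since only 2 libraries reached 1 FPKM, it was below the filter on low values and was not in the main test. Per read sequenced, controls held 60.0 times as many *Slc1a4* reads as IGF1 libraries (95% exact interval 20.3 to 293). The ratio was 75.4 (25.4 to 369) with control replicates 1 and 3 and 16.9 (4.84 to 90.5) with control replicate 2 alone. These intervals cover counting error only, not the spread between mice. With no filter, limma gave a log2 fold change of -1.03 on the log2(FPKM + 1) scale (standard error 0.26, adjusted p = 0.0566), a scale that understates the change of a gene this low.

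Genes known to be activated by ATF4 carry a C/EBP-ATF response element, and windows from 250 bases before to 50 bases after the start site (RefSeq, GRCm38.p6) were searched for its letters TGATGNAA on both strands (TTNCATCA on the other). They were found in 1 of the 7 transporters with a window, *Slc1a4*, and in *Atf3*, *Chac1*, *Trib3*, *Asns*, *Nupr1* and *Vldlr* of the 12 amino acid response genes with a window. Of the 27025 genes with windows, 4.51% held it. Windows of *Slc7a5*, *Slc1a5* and *Slc38a1* were not analysed here. The stretch around the element is shown for *Slc1a4*, the transporter nearly undetected after IGF1, and for the response genes that hold it upstream of or across the start site, 5′ to 3′ on the strand of the gene, with the element in capitals.
Slc1a4: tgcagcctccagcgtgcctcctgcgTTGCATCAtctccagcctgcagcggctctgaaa
Asns: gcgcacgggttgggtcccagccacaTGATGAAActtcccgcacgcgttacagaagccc
Chac1: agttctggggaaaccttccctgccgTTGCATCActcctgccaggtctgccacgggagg
Nupr1: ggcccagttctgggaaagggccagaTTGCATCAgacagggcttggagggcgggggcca
Vldlr: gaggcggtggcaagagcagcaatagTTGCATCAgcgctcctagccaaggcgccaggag
Atf3: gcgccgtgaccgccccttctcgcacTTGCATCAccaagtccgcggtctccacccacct
Counted with the first transcribed base as 1 and no position 0, the element lies at -4 to 4 in *Slc1a4* (stretch chr11:20332685-20332742, minus strand) and at -23 to -16 in *Asns* (chr6:7693200-7693257, minus strand). It lies at -193 to -186 in *Chac1* (chr2:119351024-119351081, plus strand), at -110 to -103 in *Nupr1* (chr7:126625548-126625605, minus strand) and in *Atf3* (chr1:191183411-191183468, minus strand), and at -200 to -193 before one start of *Vldlr* (chr19:27216795-27216852, plus strand). A match is a description of letters and not a site of binding. The E-box CACGTG, which reads the same on both strands, was in 0 of the 7 transporters and in 8.09% of all genes, which says only that these letters are not in these windows.

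The 3 remaining transporters were below 10 FPKM in every library and did not pass. *Slc7a1* (chr5:148327410-148399904, minus strand), the main carrier of arginine and lysine, was at 8.89, 9.64 and 8.75 FPKM in the controls and at 9.78, 9.43 and 8.96 FPKM in the IGF1 libraries. The groups overlapped, and the 95% interval of the log2 fold change ran from -0.22 to 0.30 (log2 fold change 0.04, adjusted p = 0.753 from limma). It was 0.08 without control replicate 2.

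*Slc43a2* (chr11:75531694-75577575, plus strand) lets large neutral amino acids pass by facilitated diffusion, without exchange. It was at 5.76, 7.93 and 5.58 FPKM in the controls and at 7.20, 6.92 and 7.63 FPKM in the IGF1 libraries. Control replicate 2 was above all IGF1 libraries and the other controls below them. Its log2 fold change was 0.17 (standard error 0.16, adjusted p = 0.392 from limma), and 0.31 (standard error 0.06, adjusted p = 0.00125 from limma) without control replicate 2. Of its exons, 922 bases overlap *Gm45606* on the opposite strand. The library kit marks strand, but whether the counting used it is not given in the sources used here. Exons of the other 9 transporters overlap no other gene.

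*Slc36a4* (chr9:15709738-15743361, plus strand), a carrier with high affinity for proline and tryptophan, was at 2.43, 1.04 and 2.57 FPKM in the controls and at 1.33, 1.27 and 1.47 FPKM in the IGF1 libraries. Control replicate 2 was below all IGF1 libraries, and the other controls above them. The log2 fold change was -0.31 (standard error 0.23, adjusted p = 0.289 from limma), and -0.57 (standard error 0.08, adjusted p = 7e-05 from limma) without control replicate 2.

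**Figure D2:**
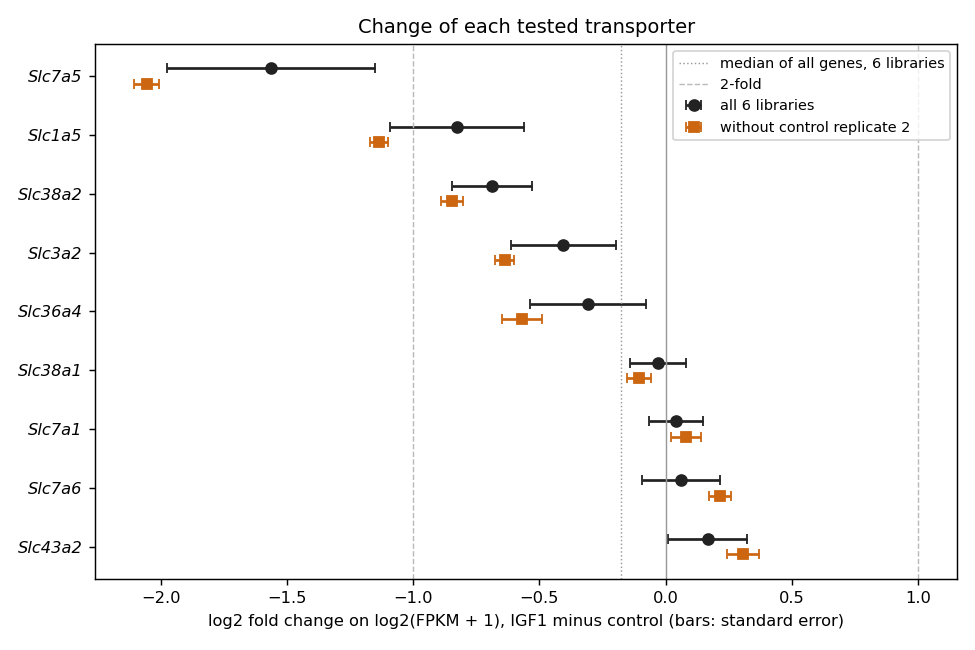
Log2 fold change of the 9 tested transporters on log2(FPKM + 1), IGF1 minus control, with standard errors, from all 6 libraries (circles) and without control replicate 2 (squares). *Slc7a5* lies past the 2-fold line in both fits, at -1.56 and -2.06, and *Slc1a5* past it only without control replicate 2, at -1.14.

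The order of levels was compared per length, as FPKM. In the means of all 3 controls it ran from *Slc1a5* at 76.7 ± 25.4 FPKM (SD, n = 3) through *Slc38a2* at 50.5 ± 9.32, *Slc3a2* at 47.7 ± 12.4, *Slc7a6* at 33.9 ± 6.84, *Slc7a5* at 32.7 ± 15.9 and *Slc38a1* at 19.6 ± 1.90 to *Slc7a1*, *Slc43a2*, *Slc36a4* and *Slc1a4* at 9.09, 6.42, 2.01 and 1.17 FPKM. Gaps between neighbors were smaller than the larger SD for *Slc38a2* and *Slc3a2*, for *Slc7a6* and *Slc7a5*, for *Slc7a5* and *Slc38a1*, and for *Slc36a4* and *Slc1a4*, which could not be ordered. Control replicate 2 had another order than the other controls, with *Slc7a6* at 41.7 FPKM above *Slc38a2* at 39.8 and *Slc3a2* at 33.4, and *Slc38a1* at 17.5 above *Slc7a5* at 14.4 FPKM. In the means of control replicates 1 and 3, *Slc38a2* and *Slc3a2* at 55.9 and 54.8 FPKM stood above *Slc7a5* at 41.8, *Slc7a6* at 29.9 and *Slc38a1* at 20.6 FPKM. In IGF1 libraries *Slc1a5* at 41.0 ± 0.585 FPKM stood above *Slc7a6* at 34.9 ± 0.423 and *Slc3a2* at 34.9 ± 0.252, which could not be ordered, and these above *Slc38a2* at 30.6 ± 1.28 and *Slc38a1* at 19.1 ± 0.346 FPKM. *Slc7a5* stood at the level of *Slc7a1*, at 9.30 ± 0.309 against 9.39 ± 0.411 FPKM, which could not be ordered either, and *Slc43a2*, *Slc36a4* and *Slc1a4* followed at 7.25, 1.36 and 0.020 FPKM.

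The direction of small changes depended on scaling. The FPKM of all genes summed to 466135 and 466619 in control replicates 3 and 1, to 635111 in control replicate 2 and to 677826 to 680285 in IGF1 libraries. Scaling each library to its 75th percentile shifted the all-gene median from -0.18 to 0.13 (log2), and the called genes from 484 lower and 207 higher to 191 lower and 358 higher. Relative to that median, the transporters kept the same side, with a median of -0.06 for the 9. *Slc7a5* was at -1.23 (adjusted p = 0.0483 from limma) and remained called, *Slc1a5* was at -0.48, whereas *Slc38a1* turned to 0.30.

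Genes of the amino acid response did not move as 1 group. Of the 12 tested, *Cebpb* rose past both thresholds, against 1.98% of all genes, and 0 passed as lower, against 4.63%. Without control replicate 2, 2 of the 12 passed as lower and 3 as higher, against 20.6% and 12.3% of all genes. The median log2 fold change was -0.13 (0.17 with 75th percentile scaling, where the median of all genes was 0.13). *Cebpb*, a partner of ATF4 and regulator of myeloid genes, was at 54.6, 58.2 and 47.7 FPKM in the controls and at 144, 143 and 134 FPKM in the IGF1 libraries (log2 fold change 1.38, standard error 0.11, adjusted p = 0.0285 from limma). Here control replicate 2 was like the other controls, and without it the log2 fold change was 1.44. With length and GC trends removed *Cebpb* was at 0.55 (adjusted p = 0.051 from limma) and no longer called. *Asns*, which makes asparagine, was at 27.2, 4.45 and 26.9 FPKM in the controls and at 4.67, 4.65 and 5.01 FPKM in the IGF1 libraries (log2 fold change -1.49, adjusted p = 0.108 from limma). Control replicate 2 was below all IGF1 libraries, and without it the log2 fold change was -2.28. *Vldlr*, a lipoprotein receptor gene induced by ATF4, was at 17.5, 4.34 and 18.7 FPKM in the controls and at 3.58, 3.87 and 3.53 FPKM in the IGF1 libraries (log2 fold change -1.42, adjusted p = 0.0739 from limma, and -2.04 without control replicate 2).

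Other genes of the response, named after their values were seen, showed both directions. *Atf4* itself was at 75.8, 129 and 73.7 FPKM in the controls and at 163, 153 and 157 FPKM in the IGF1 libraries (log2 fold change 0.81, adjusted p = 0.0536 from limma). All IGF1 libraries were above all controls for *Atf4*, and below all controls for *Nupr1*, a stress-induced nuclear protein gene (log2 fold change -0.91, adjusted p = 0.0419 from limma), and for *Trib3*, an inhibitor of ATF4 that ATF4 itself induces (log2 fold change -0.60, adjusted p = 0.054 from limma). Without control replicate 2 the log2 fold changes of *Atf4*, *Nupr1* and *Trib3* were 1.07, -0.74 and -0.76. *Chac1*, which breaks down glutathione, had 8, 6 and 23 reads in the controls and was listed at 0 in all IGF1 libraries, too low to be tested.

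Among other carriers at the cell surface, 28 of 37 were above 0 in some library, but only 7 were high enough to be tested and 0 of them passed both thresholds or the adjusted p alone in limma, against 6.61% and 20.4% of all genes. Their median log2 fold change was -0.38. *Slc16a10*, an aromatic amino acid carrier, *Slc6a6*, the taurine carrier, and *Slc7a8*, another light chain of *Slc3a2*, had the largest differences, at -0.51, -0.49 and -0.45, and were at -0.71, -0.61 and -0.93 without control replicate 2. *Slc15a2*, a peptide carrier named after its values were seen, went the other way. It was at 1.06, 5.68 and 0.514 FPKM in the controls and at 2.69, 2.40 and 2.66 FPKM in the IGF1 libraries, with a log2 fold change of 0.38, and of 1.02 (adjusted p = 2.5e-05 from limma) without control replicate 2. It was then the 1 of 7 to pass both thresholds as higher, against 12.3% of all genes. *Slc6a15*, a carrier of branched-chain amino acids and proline, was below the filter and named after its values were seen. It had 93, 21 and 107 reads in the controls and 6, 3 and 7 in the IGF1 libraries, without overlap, so it resembled *Slc1a4* in being low in controls and lower in IGF1 libraries.

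At the lysosome, where amino acids leave after protein breakdown, 6 of 9 carriers in the files were tested. *Slc36a1*, a proton-coupled carrier of small amino acids, rose, 1 of 6 against 1.98% of all genes, and 0 passed both thresholds as lower, against 4.63%. It was at 1.04, 2.72 and 0.938 FPKM in the controls and at 5.52, 5.12 and 4.97 FPKM in the IGF1 libraries (log2 fold change 1.34, standard error 0.27, adjusted p = 0.0369 from limma). Its log2 fold change was 1.64 without control replicate 2, and 0.65 with a pseudocount of 5, which ended the call. That of its relative *Slc36a4* was -0.31, and the ratio of *Slc36a1* to *Slc36a4* was 0.427, 2.63 and 0.365 in the controls and 4.14, 4.03 and 3.37 in the IGF1 libraries (exact permutation p = 0.1). *Slc15a4*, a histidine and peptide carrier, passed the adjusted p alone (log2 fold change -0.43, adjusted p = 0.0486 from limma), and *Slc38a7*, a glutamine and asparagine carrier, was at -0.59 (adjusted p = 0.0575), values of -0.39 and -0.76 without control replicate 2. *Slc15a4* did not pass with quantile normalization (-0.13, adjusted p = 0.497), with 75th percentile scaling (-0.12, adjusted p = 0.545) or with length and GC trends removed (-0.35, adjusted p = 0.0879 from limma). Its adjusted p from limma was 0.156 to 0.167 when any single library other than control replicate 2 was left out.

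In mitochondria, 10 of 12 amino acid carriers were tested, and 0 passed both thresholds in limma, against 6.61% of all genes. The median log2 fold change was -0.56, and 1 carrier in each direction passed the adjusted p alone, *Slc25a38* as higher and *Slc25a22*, a glutamate carrier named after its values were seen, as lower (log2 fold change -0.77, adjusted p = 0.0489 from limma). *Slc25a38*, the glycine carrier needed for heme synthesis, was at 7.02, 10.7 and 5.96 FPKM in the controls and at 14.4, 14.2 and 14.6 FPKM in the IGF1 libraries (log2 fold change 0.83, adjusted p = 0.0459 from limma, and 1.05 without control replicate 2). Its adjusted p from limma was 0.0545 with no filter, and 0.152 to 0.164 when any other single library was left out. *Slc25a15*, the ornithine carrier, and *Slc25a12*, an aspartate and glutamate carrier, were at -1.29 (adjusted p = 0.0976) and -0.93 (adjusted p = 0.0523 from limma), and at -1.93 and -1.22 without control replicate 2. Without control replicate 2, *Slc25a12*, *Slc25a15* and *Slc25a13*, another aspartate and glutamate carrier, passed both thresholds as lower, 3 of 10 against 20.6% of all genes, and *Slc25a38* as higher, 1 of 10 against 12.3%.

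**Figure D3:**
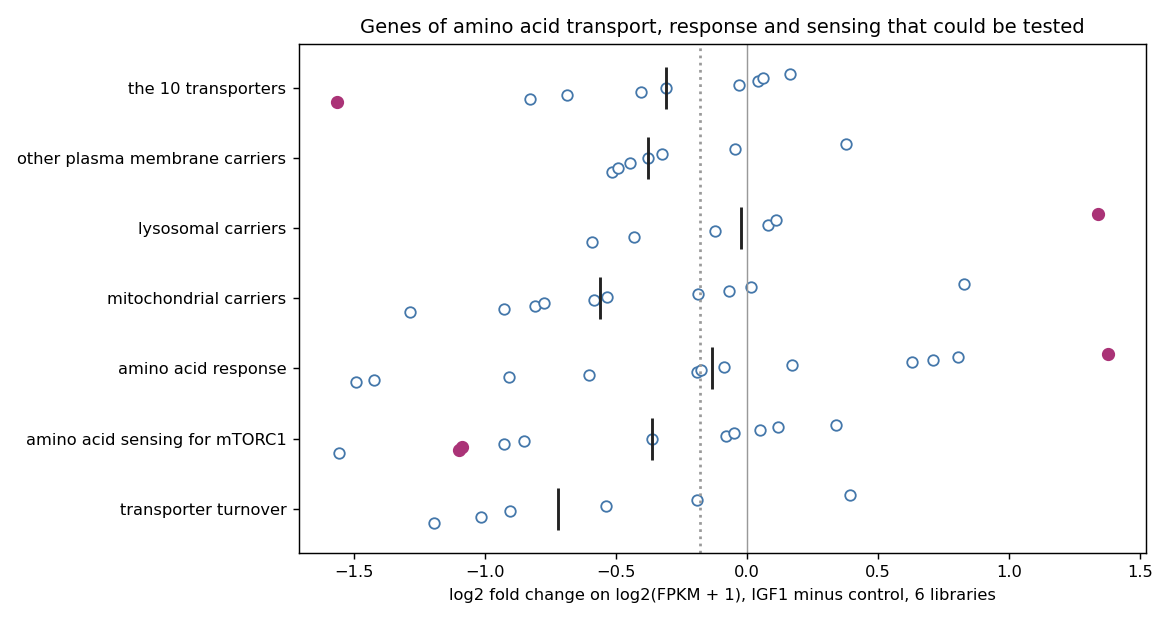
Log2 fold change on log2(FPKM + 1), IGF1 minus control, of each tested gene in the transporter, response, sensing and turnover lists. Filled points passed both thresholds, short bars are list medians and the dotted line is the median of all genes, -0.18. *Slc7a5* is the one filled point among the transporters, and the filled points at the right are *Slc36a1* and *Cebpb*.

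Of 11 genes that sense amino acids for mTORC1 and could be tested, 2 fell and 0 rose, against 4.63% and 1.98% of all genes. Without control replicate 2, 4 of the 11 passed as lower and 0 as higher, against 20.6% and 12.3% of all genes. The median log2 fold change was -0.36 (-0.03 with 75th percentile scaling). *Sesn1* and *Sesn2* encode sestrins, which restrain mTORC1 when leucine is low. *Sesn1* was at 44.8, 22.1 and 44.6 FPKM in the controls and at 14.5, 17.0 and 16.6 FPKM in the IGF1 libraries (log2 fold change -1.10, adjusted p = 0.0481 from limma, and -1.43 without control replicate 2). *Sesn2* was at 4.77, 2.18 and 4.81 FPKM in the controls and at 1.24, 1.26 and 1.20 FPKM in the IGF1 libraries (log2 fold change -1.09, adjusted p = 0.0429 from limma, and -1.37 without control replicate 2). In both, control replicate 2 was the lowest control and still above every IGF1 library. These calls were lost under several settings. *Sesn1* was short of 2-fold with quantile normalization (-0.83), 75th percentile scaling (-0.76), length and GC trends removed (-0.75) and a pseudocount of 5 (-0.95), and its adjusted p was 0.0586 with no filter. *Sesn2* was short of it with 75th percentile scaling (-0.84) and a pseudocount of 5 (-0.50), and its adjusted p was 0.0515 with no filter. *Depdc5*, a subunit of a complex that restrains mTORC1, and *Bmt2*, a sensor of methionine derivatives, passed the adjusted p alone, with log2 fold changes of -0.93 and -0.85, and were named after their values were seen. *Lars*, the leucyl-tRNA synthetase gene, was at 53.7, 12.3 and 53.0 FPKM in the controls and at 10.7, 10.2 and 10.7 FPKM in the IGF1 libraries, and with this spread among controls it did not pass (log2 fold change -1.56, adjusted p = 0.074 from limma, and -2.23 without control replicate 2).

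Genes that control the turnover or trafficking of carriers were also examined. None of the 6 passed both thresholds in limma (0 of 6 against 6.61% of all genes, and 3 of 6 as lower without control replicate 2 against 20.6%), and their median log2 fold change was -0.72. *Arl6ip5*, which restrains glutamate carriers in the endoplasmic reticulum, was at 52.9, 35.5 and 52.9 FPKM in the controls and at 22.7, 24.5 and 25.8 FPKM in the IGF1 libraries (log2 fold change -0.90, adjusted p = 0.0369 from limma), short of 2-fold. Its adjusted p from limma was 0.147 to 0.164 when any single library other than control replicate 2 was left out. *Nedd4*, a ubiquitin ligase, was at -1.01 (adjusted p = 0.0507), and *Arrdc3*, an arrestin-like adaptor, at -1.19 (adjusted p = 0.0958 from limma). *Arl6ip5*, *Nedd4* and *Arrdc3* were at -1.09, -1.34 and -1.78 without control replicate 2.

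**Figure D4:**
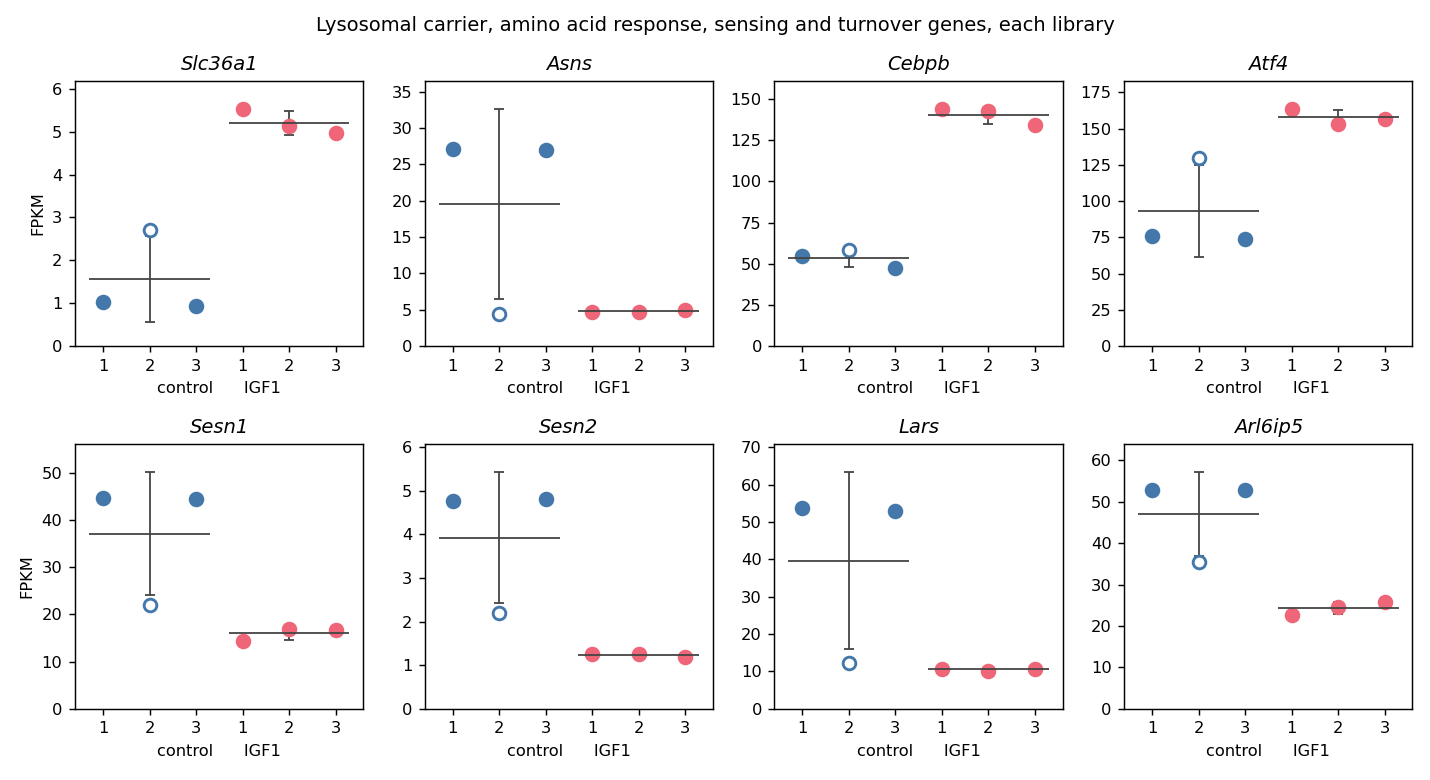
Expression of 8 genes of lysosomal transport, amino acid response, sensing and carrier turnover in each library, in FPKM on axes that start at 0, with the mean and SD of 3 libraries and control replicate 2 drawn open. *Cebpb* in control replicate 2 is at 58.2 FPKM, like the other controls, whereas *Asns* in control replicate 2 is at 4.45 FPKM, like the IGF1 libraries.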

How the data were processed

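HSC RNA was sequenced in 3 control and 3 IGF1 libraries. The tables the authors deposited hold 21878 rows per library, named by gene symbol (4 that share a name with another row were left out), with values taken as FPKM because values of a gene rose in whole steps. Whole reads were recovered for all 14838 genes above 0 in at least 2 libraries (tolerance 0.02 reads). The submitters' processing notes name fastp, HISAT2, StringTie and the builds GRCm38 and mm10, while the paper's methods name RSEM and DESeq2. The annotation is not given in the sources used here. The test, limma 3.58.1 under R 4.3.3 (eBayes with a trend) on log2(FPKM + 1), covered the 10447 genes that reached 1 FPKM in 3 or more libraries, with Benjamini-Hochberg adjustment over all of them. Genes were called at a fold change over 2 and an adjusted p under 0.05. This scale understates the changes of low genes. In a test on simulated data, 85 of 100 genes changed by 1.5 (log2), 98 of 100 changed by 2.5 and 0 of 10247 unchanged genes were called. All simulated libraries shared the same low noise, and none stood apart from its group as control replicate 2 does. These counts therefore do not give the power or the false calls of the fit reported.

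The transporters and the lists were chosen with earlier results of these data known. All 10 transporters are named, and of each wider list every called gene and the 3 genes with the largest absolute log2 fold change. Symbols are those of the files, and gene positions are those of GENCODE for GRCm38. Of the listed genes, *Slc1a4* reads were compared with an exact binomial interval on recovered reads. Alternatives were quantile and 75th percentile scaling, other pseudocounts and filters, omission of the variance trend or of each library in turn, weights per library, a replicate block, removal of length and GC trends, voom on recovered reads, and the adjusted p alone.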

Additional observations from a re-analysis of the deposited data

How the results depend on the processing

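The count of transporters called, 1 in the fit reported, was 0 with a pseudocount of 5, with no filter, with a replicate block and with voom on recovered reads (1 transporter passed the fold threshold with an unadjusted p under 0.05 in each of these limma fits, and 2 with no filter). Over all genes, 856, 1733, 1780 and 2519 did so with a pseudocount of 5, no filter, the replicate block and voom. The count of transporters called was 2 of 9 with library weights, which gave control replicate 2 a weight of 0.0137. With these weights 2159 of all 10447 genes were called lower and 1276 higher. On the adjusted p alone the count was 2 of 9, against 20.4% of all genes. Leaving out 1 library gave 0 to 2, with 2 only without control replicate 2. The adjusted p of *Slc7a5* was 0.0528 with a pseudocount of 5, 0.0597 with no filter, 0.0851 with the replicate block and 0.0513 with voom, and its log2 fold change lay between -2.06 and -1.23 under all alternatives run. Genes called in the wider lists, with 7, 6, 10, 12, 11 and 6 genes tested, were 4 in the fit reported. They were 7 with a pseudocount of 0.1, 1 with a pseudocount of 5, 2 with no filter and 2 with a minimum of 5 FPKM. They were 0 with the replicate block, 17 with library weights, 7 with voom and 11 on the adjusted p alone. Leaving out 1 library gave 0 to 18, with 18 only without control replicate 2. Over all genes, 6.61% were called in the fit reported and 32.9% without control replicate 2. All-gene calls, lower and higher, were 701 and 278 with a pseudocount of 0.1, 157 and 66 with a pseudocount of 5, and 679 and 380 with voom. *Slc38a1* turned from -0.03 to 0.29 with quantile normalization and 0.30 with 75th percentile scaling, and leaving out 1 library gave -0.11 to 0.024. *Slc7a6* was at -0.041 to 0.21 when 1 library was left out. With length and GC trends removed, *Slc7a1* turned to -0.11 and *Slc43a2* to -0.088. The median of all genes was -0.02 with quantile normalization and 0.13 with 75th percentile scaling. The causes were not tested. Deviations from the group means of same-numbered libraries correlated at -0.0573, -0.0504 and 0.00567. These values cannot show whether replicate numbers pair the samples, since the distance of control replicate 2 from the other controls dominates the control deviations. With the replicate block 0 of all genes were called by limma, and 1780 passed the fold threshold with an unadjusted p under 0.05.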
